A study of Mus musculus with 19 samples.

Results

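A set of 7 genes used to tell fast from slow spinal motor neurons was followed in RNA sequencing libraries of mouse spinal cord and of cultured motor neurons in which the microRNA miR-146a was deleted or blocked. The 7 genes, Chodl, Mmp9, Calca, Calcb, Esrrb, Esrrg and Sv2a, were picked by symbol out of the 55487 genes of the deposited tables. Chodl had been noted as lower in knockout than in wild-type cords and as higher in cultures given a miR-146a inhibitor. The values of the 7 genes in both of those comparisons are therefore given as a description, without p-values. Which of them passed the tests run over all genes is stated too, and nothing is read from it. All 7 passed the filter on low counts in every comparison.

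The cord libraries comprise 9 labelled miR-146a KO and 4 labelled wild type, each from snap-frozen spinal cord. The labels used here state no age, strain or way in which the allele was made. The cultures were motor neurons made from the wild-type mouse embryonic stem cell line RW.4 with retinoic acid and SAG, a Smoothened agonist. They were transfected with 10 nM miR-146a LNA (3 libraries) or control LNA (3 libraries) for 72 h. An LNA is a chemically locked oligonucleotide that binds a microRNA and blocks it. All cultures derive from 1 cell line, and nothing in the labels says that each library is its own animal or culture. The p-values therefore measure only the spread between these samples, which may be technical.

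A motor unit is a motor neuron with the muscle fibres it drives. Fast motor neurons drive forceful, fatigable fibres and are lost early in motor neuron disease, while slow motor neurons drive fatigue-resistant fibres and tend to persist. Chodl (chondrolectin, a membrane protein with a C-type lectin domain) and Mmp9 (a secreted matrix-degrading protease) mark fast motor neurons. Calca and Calcb encode the peptides alpha-CGRP and beta-CGRP, calcitonin gene-related peptides made by many motor neurons and by sensory neurons. Esrrb and Esrrg encode estrogen-related receptors, nuclear receptors linked to slow and gamma motor neurons, and Sv2a encodes a synaptic vesicle glycoprotein retained at slow motor nerve terminals. A microRNA lowers the output of transcripts whose 3′ UTR pairs with its seed, bases 2 to 8 of the mature strand.

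The mature strand of miR-146a-5p, which the knockout removes and the LNA blocks, and that of its relative miR-146b-5p are shown to give the seed, which is the same in both and is in capitals. They are RefSeq sequences placed on GRCm38.p6 at chr11:43374435-43374456 (minus strand) and chr19:46342790-46342811 (plus strand).
miR-146a-5p: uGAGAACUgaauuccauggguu
miR-146b-5p: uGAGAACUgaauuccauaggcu

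The longest annotated 3′ UTR of each of the 7 genes was searched for the DNA match to that seed, AGTTCTC, on the transcribed strand. A full match followed by A is called an 8mer, either 7 of those 8 bases a 7mer, and GTTCTC alone a 6mer. The 2 estrogen-related receptor genes held the longer matches, and the windows below (GRCm38, plus strand, matched bases in capitals) show them with the single 6mers of Chodl and Calcb.
Esrrb, chr12:86519595-86519618: tgtcccagtacacccAGTTCTCAg
Esrrb, chr12:86520605-86520628: cctaaaattccacctAGTTCTCAg
Esrrg, chr1:188213577-188213600: tatatcgtagattgtgGTTCTCAg
Esrrg, chr1:188213980-188214003: ggaggtacaatgtgtAGTTCTCcg
Chodl, chr16:78951380-78951403: ttgctgtttggctgagGTTCTCct
Calcb, chr7:114723142-114723165: gcagcaaaccaaatagGTTCTCca

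Esrrb carried 2 8mers in a 3′ UTR of 2563 bases. Of 2760 genes with a 3′ UTR of like length, 33.5% held a 7mer or an 8mer, 7.90% an 8mer and 0.399% at least 2 8mers. Over all 20661 genes with an annotated 3′ UTR of 50 bases or more, 4.13% held an 8mer and 0.198% held 2 or more. Esrrg carried 1 7mer ending in A, 1 7mer without it and 1 further 6mer in 3746 bases, and 44.4% of genes with a 3′ UTR of like length held a 7mer or an 8mer. Mmp9, Calca and Sv2a held no match in these 3′ UTRs. A match is a description of the letters and not evidence of a working site. The RefSeq promoter table (GRCm38.p6, 250 bases before to 50 after the start) held Chodl, Calca, Esrrb, Esrrg and Sv2a. None of these 5 genes had the estrogen-related receptor element TNAAGGTCA on either strand, which 1.28% of 32851 promoters hold. Calca had the shorter half-site letters AGGTCA, which 16.3% of promoters hold.

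On GRCm38 the genes lie at chr16:78930948-78951733 (Chodl), chr2:164940780-164955850 (Mmp9), chr12:86361117-86521628 (Esrrb), chr1:187608791-188214885 (Esrrg) and chr3:96181151-96195521 (Sv2a). Calca, at chr7:114631478-114636357 on the minus strand, and Calcb, at chr7:114718643-114723365 on the plus strand, are neighbours 82.3 kb apart. Counts of Calca cannot separate its CGRP transcript from its calcitonin transcript.

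Total counts were 28163289 to 39577247 in cords and 40647549 to 65471742 in cultures. Pttg1, which lies close to the miR-146a gene on chromosome 11, was at 14.9 to 17.4 normalised CPM (deposited counts scaled to library size by the TMM method) in the wild type and at 1.06 to 1.81 in 8 of the knockout libraries, but at 13.04 in the library labelled knockout replicate 9, which therefore stands with the wild type at this gene. That library also had Sod1 at 1947, against 191 to 275 in all other cords. Knockout replicate 7 held 5430 CPM of summed skeletal muscle markers, against at most 14.2 in any other cord. The knockout means of the 7 genes, and edgeR calls, are therefore also given without these libraries. Counts of libraries, ranges, medians, TPM levels and correlations in cords include both. The cultures had the motor neuron genes Isl1 at 210 ± 16.6, Mnx1 at 41.4 ± 2.25 and Chat at 89.6 ± 2.65 CPM (SD, n = 3 control cultures) and the astrocyte gene Gfap at 0.0553 ± 0.0374, whereas wild-type cords had Chat at 32.3 ± 3.28 and Gfap at 1593 ± 389 (SD, n = 4).

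Per transcript length, Sv2a was the most abundant of the 7 genes in both cord groups and in the control cultures. Levels here are deposited TPM, which divides counts by gene length and can be compared between genes. In wild-type cords Sv2a stood at 452 ± 13.6, Esrrg at 47.7 ± 4.59, Calca at 35.0 ± 3.15, Mmp9 at 17.2 ± 1.69, Chodl at 17.1 ± 5.24, Calcb at 13.6 ± 3.44 and Esrrb at 7.89 ± 0.2999 TPM (SD, n = 4). The libraries of Mmp9 overlapped with those of Chodl, and those of Chodl with those of Calcb, while all other neighbours in this order were apart. In knockout cords Calca, at 50.9 ± 22.7, stood above Esrrg, at 43.6 ± 6.56, with overlapping libraries. Mmp9 at 12.5 ± 4.99, Calcb at 10.5 ± 2.51, Chodl at 8.74 ± 3.24 and Esrrb at 8.03 ± 1.64 TPM (SD, n = 9) followed, each overlapping with the next.

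The cultures held another order, with both fast markers near the bottom. Control cultures had Sv2a at 188 ± 6.27, Calca at 139 ± 28.3, Esrrg at 85.2 ± 13.7, Calcb at 12.97 ± 3.85, Esrrb at 1.02 ± 0.0936, Chodl at 0.790 ± 0.178 and Mmp9 at 0.332 ± 0.255 TPM (SD, n = 3). Only Esrrb and Chodl overlapped as neighbours. In cultures given the miR-146a LNA, Calca led at 220 ± 17.5, ahead of Sv2a at 170 ± 16.7 and Esrrg at 72.7 ± 9.39. Chodl, at 2.66 ± 0.223 TPM, stood above Esrrb at 1.19 ± 0.273 in every library of that group, the reverse of their order by mean in the control cultures.

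**Figure D1:**
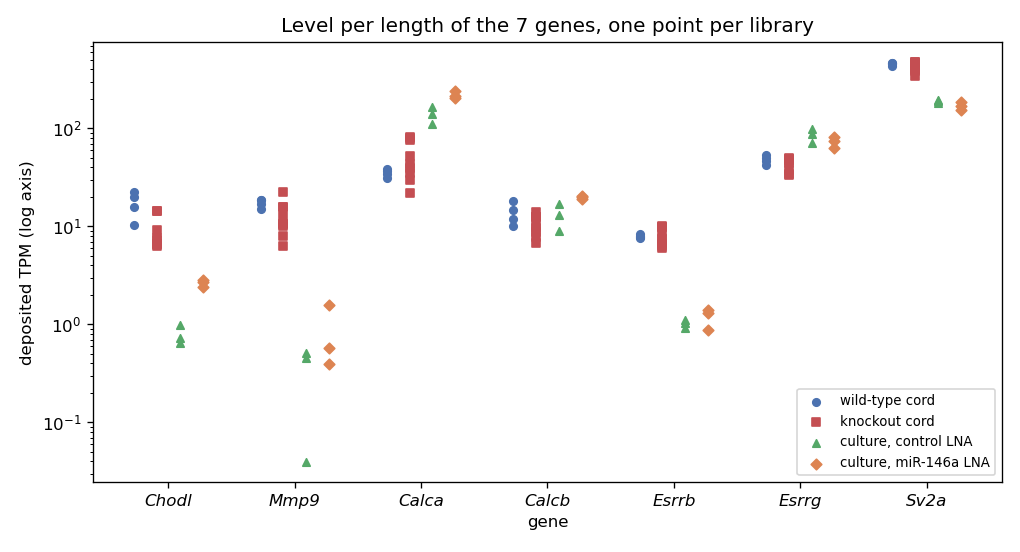
Deposited TPM (log axis) of the 7 genes, with 1 point per library for wild-type cords (circles), knockout cords (squares), control LNA cultures (triangles) and miR-146a LNA cultures (diamonds). Chodl, Mmp9 and Esrrb sit lower in all cultures than in all cords, and Calca sits higher.

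The comparison of wild-type cords with control LNA cultures was not itself used to choose the 7 genes and was tested. Its libraries are the reference groups of both comparisons that were used, so its p-values are not independent of that choice. Both fast markers were far higher in the cord. Chodl had 29.2 CPM in cords and 1.16 in cultures, a log2 difference of 4.65 (SE 0.30, edgeR adjusted p = 8.02e-07). Mmp9 had 19.04 and 0.317, a difference of 5.89 (SE 0.34, adjusted p = 2.7e-08). CPM in this comparison differ slightly from those elsewhere because the scaling spans cords and cultures.

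Of the peptide genes, Calca was lower in cords and Calcb did not pass the test. Calca had 18.5 CPM in cords and 62.7 in cultures, a log2 difference of -1.76 (SE 0.13, adjusted p = 2.34e-07). Calcb had 5.38 and 4.40, a difference of 0.29 (SE 0.22, adjusted p = 0.23), and reached 0.50 (adjusted p = 0.046) without control culture replicate 1. Expressed as a ratio of TPM, Calca exceeded Calcb by 2.03 to 3.41 times in the 4 wild-type cords and by 9.97 to 12.2 times in the 3 control cultures.

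The receptor genes moved in opposite directions. Esrrb was higher in cords (15.0 against 1.65 CPM, log2 difference 3.19, SE 0.13, adjusted p = 8.55e-13), and Esrrg was lower (92.8 against 142 CPM, -0.61, SE 0.09, adjusted p = 3.15e-05). The TPM ratio of Esrrg to Esrrb was 5.06 to 6.67 in wild-type cords and 76.9 to 95.4 in control cultures. Esrrb is also a gene of pluripotent cells, and 8 of their markers summed to 16.1 to 20.4 CPM in wild-type cords and 6.70 to 10.5 in control cultures. Of the markers, Pou5f1 was at 0.0192 to 0.0916 CPM and Nanog at 0 counts in control cultures, while Zfp42 was at 0.381 ± 0.185 there and at 0 counts in wild-type cords, and Tfcp2l1 averaged 2.10 against 1.13. Klf4, at means of 10.3 CPM in wild-type cords and 6.26 in control cultures, was the largest part of both sums. The part of pluripotent cells in the Esrrb values was not tested. Sv2a was higher in cords (656 against 234 CPM, 1.49, SE 0.05, adjusted p = 5.56e-14).

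In all, 6 of the 7 genes passed the threshold of an adjusted p under 0.05, 4 higher and 2 lower in cords, where 85.4% of the 21106 genes tested did so (44.9% higher and 40.5% lower). DESeq2 and limma called the same 6 genes, and 84.8% and 86.3% of all genes. The median log2 difference was 1.49 over the 7 genes and 0.14 over all genes. The share is thus close to the background of this comparison, in which tissue, cell makeup and maturity cannot be told apart. In bulk RNA, fewer cells of a type and less RNA per cell cannot be told apart either.

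Lists of related genes were tested in the same fit, where 44.9% of all genes were higher and 40.5% lower in cords. These lists were chosen with earlier results of these data known, so nothing is read from their counts. Of 17 other motor neuron subtype genes, 12 were higher and 4 lower in cords, among them Dlk1, a membrane ligand tied to fast motor neurons (0.732 to 88.0 CPM from cultures to cords), and Spp1, osteopontin, a marker of alpha motor neurons (1.70 to 74.1). Of 7 tested CGRP receptor and related peptide genes, 6 were higher in cords: the receptor subunit Ramp1 had a log2 difference of 8.02 (SE 0.17, adjusted p = 2.29e-15) and its partner Calcrl 5.53 (SE 0.23, adjusted p = 1.05e-12). In the cultures, where Calca was the more abundant, Calcrl averaged 0.286 and Ramp1 0.255 CPM. Of 8 estrogen-related receptor partners, 5 were higher in cords and 2 lower, with the coactivator Ppargc1a at 65.5 against 11.9 CPM (2.46, SE 0.07, adjusted p = 6.82e-15) and the muscle regulator Perm1 at 4.04 against 0.354.

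Among 15 tested matrix metalloproteinase and inhibitor genes, 6 were higher and 8 lower in cords. The protease Mmp14 was higher (30.6 against 1.07 CPM), while the macrophage protease Mmp12 was lower (0.152 against 55.7 CPM, -8.50, SE 0.22, adjusted p = 1.57e-13), as was the inhibitor Timp1 (0.378 against 15.7 CPM). Of 11 synaptic vesicle membrane genes, 7 were higher and 4 lower, with Vamp1, a fusion protein of motor nerve terminals, at 1425 against 25.7 CPM. Sv2b and Sv2c, the paralogues of Sv2a, were higher too (3.30 and 1.77 on the log2 scale). Motor neuron identity genes went mostly the other way, 3 higher and 11 lower: the transcription factor Isl1 had a log2 difference of -7.40 (SE 0.09) and the neurofilament Nefh 3.21 (SE 0.10).

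In the spinal cords, Chodl had the most negative fold change of the 7 genes between knockout and wild type. Chodl was at 38.2, 36.5, 27.0 and 19.6 CPM in wild-type replicates 1 to 4. In the knockout libraries the lowest value was 9.70 (replicate 9), the median 12.7 and the highest 24.9 (replicate 5). Of the knockout libraries, 7 lay below every wild-type library, while replicates 5 and 7, at 24.9 and 24.3, lay inside the wild-type range, so the groups overlapped. The means were 30.3 ± 8.69 (SD, n = 4) and 15.0 ± 5.70 (SD, n = 9), a log2 fold change of -1.01 (SE 0.26). Without the library labelled knockout replicate 9 the knockout mean was 15.7 ± 5.70 (n = 8), and without replicates 7 and 9 it was 14.5 ± 4.89 (n = 7).

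Mmp9, the other fast marker, followed most of the same libraries. It was at 20.3, 21.8, 18.8 and 18.1 CPM in the wild-type cords, and from 7.19 (knockout replicate 1) through a median of 12.3 to 25.0 (replicate 7) in the knockout cords. In 8 knockout libraries it lay below all wild-type libraries, and in replicate 7 above them. The means were 19.8 ± 1.65 and 13.8 ± 5.58, a log2 fold change of -0.51 (SE 0.27). Without replicates 7 and 9 the knockout mean was 13.1 ± 3.76 CPM (n = 7). Mmp9 is also made by neutrophils and by bone-resorbing osteoclasts, and replicate 7 held the most of both marker lists: 110 CPM of summed neutrophil markers, against 5.77 to 82.0 in the other knockout and 8.53 to 10.2 in the wild-type cords, and 1235 CPM of bone markers, against 35.0 to 85.6 and 42.3 to 48.3. The bone list joins genes of osteoclasts and of bone-forming osteoblasts, and 1149 CPM of its sum in replicate 7 was the collagen gene Col1a1. The osteoclast gene Acp5 reached 36.6 CPM in the knockout group and was at most 0.311 in the wild type. The part of those cells in the Mmp9 value was not tested.

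Calca, unlike the fast markers, spread to both sides of the wild type. Its wild-type values were 19.1, 21.5, 16.6 and 19.6 CPM. The knockout libraries ran from 11.8 (replicate 6) through a median of 20.9 to 43.1 (replicate 7), with replicates 4 (42.6), 8 (38.9) and 1 (28.2) also above every wild-type cord and replicates 5 and 6 below. The SD was 2.02 among 4 wild-type and 12.0 among 9 knockout libraries, around means of 19.2 and 26.8, and the log2 fold change was 0.48 (SE 0.33). The 4 libraries with the most Calca had 755 (replicate 4), 850 (replicate 7), 349 (replicate 8) and 716 (replicate 1) CPM of summed microglial markers, against 244 to 300 in wild-type cords and 223 to 476 in the other 5 knockout libraries. The library with the least Calca, replicate 6, had 476, more than replicate 8. The part of microglia in the Calca values was not tested. The sensory neurons of the dorsal root ganglion also make Calca: 10 of their markers summed to 14.4 to 19.1 CPM in wild-type and 14.2 to 30.3 in knockout cords, the highest being replicate 1, and the defining channel gene Scn10a was at or below 0.204 CPM in every cord.

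Calcb did not follow its neighbour. It was at 7.09, 6.13, 4.78 and 4.32 CPM in the wild type and at 2.74 to 5.65 with a median of 4.04 in the knockout. It lay below every wild-type cord in 5 knockout libraries and inside the wild-type range in 4. Means of 5.58 ± 1.26 and 4.13 ± 0.940 gave a log2 fold change of -0.43 (SE 0.19). The TPM ratio of Calca to Calcb was therefore 2.03 to 3.41 in wild-type and 2.82 to 8.56 in knockout cords.

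The markers linked to slow and gamma motor neurons had smaller fold changes. Esrrb was at 15.0, 15.6, 14.4 and 17.2 CPM in the wild type and at 10.6 to 19.2 with a median of 14.5 in the knockout, where 4 libraries lay above and 4 below all wild-type cords (log2 fold change -0.03, SE 0.15). Esrrg was at 102.6, 101.4, 91.9 and 89.2 CPM in the wild type and at 66.9 to 98.5 with a median of 88.1 in the knockout, 5 libraries being lower than all wild-type ones (-0.19, SE 0.10). Sv2a was at 668, 689, 678 and 689 CPM in the wild type and at 494 (replicate 7) to 692 with a median of 636 in the knockout, where 6 libraries were lower and 2 higher than all wild-type ones (-0.15, SE 0.08). For these 3 genes the knockout libraries varied more among themselves than the wild-type libraries did, by SDs of 3.19 against 1.17, 11.9 against 6.72 and 70.7 against 10.1 CPM. Without replicates 7 and 9 the knockout means were 25.3 ± 11.7 CPM for Calca, 4.13 ± 1.07 for Calcb, 16.01 ± 3.004 for Esrrb, 85.8 ± 12.9 for Esrrg and 644 ± 44.7 for Sv2a (n = 7). The log2 fold change of Esrrb then turned to 0.05, and that of Sv2a was -0.07.

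**Figure D2:**
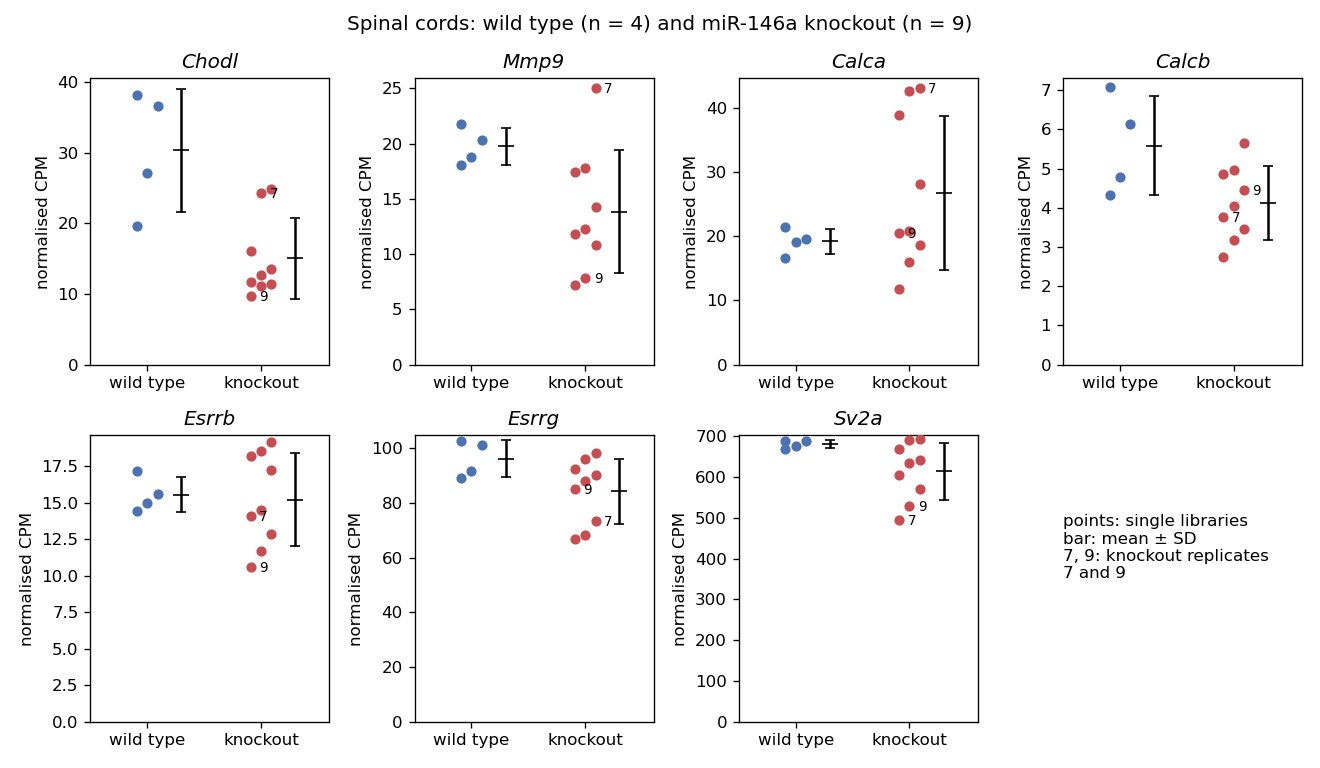
Normalised CPM of the 7 genes in 4 wild-type and 9 knockout spinal cord libraries, with 1 point per library, knockout replicates 7 and 9 numbered, and bars for mean ± SD. For Chodl 7 knockout libraries lie below all wild-type ones and for Mmp9 8, and Calca spreads from 11.8 to 43.1 in the knockout.

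None of the 7 genes passed an adjusted p under 0.05 in edgeR in this comparison, where 0% of the 22174 genes tested did, and no gene of the 7 had groups free of overlap, against 1.3% of all genes. At an unadjusted p under 0.05 stood 2 of the 7 and 14.3% of all genes. DESeq2 called 1 of the 7 (Chodl) and 1.72% of all genes, and limma none of the 7 and 0.0135% of all genes. Nothing is read from these counts, since the comparison served to choose the genes. The median log2 fold change was -0.19 over the 7 genes and 0.02 over all genes. Markers of neurons at large summed to less in most knockout libraries. For 8 pan-neuronal markers the sum was 5716 to 6249 CPM in wild-type and 4622 to 5738 in knockout cords. Of 9 knockout cords, 8 lay below every wild-type cord in that sum. The largest differences by mean, from wild type to knockout, were in Snap25 (2089 to 1755 CPM) and Eno2 (1138 to 963). Map2 (901 to 918) and Gap43 (98.8 to 112) were higher by mean in the knockout, and the other markers were lower. The 15 motor neuron identity genes summed to 4559 to 5947 CPM in wild-type and 3737 to 4998 in knockout cords. Nefm, Nefh and Nefl, with wild-type means of 2258, 1247 and 1051 CPM, made up most of that sum. Among the 15, fold changes were negative for 11 and positive for 4, namely Isl1, Foxp1, Prph and Ret. Microglial markers summed to 223 to 850 CPM in the knockout, against 244 to 300 in the wild type. Astrocyte markers summed to 3592 to 8723 CPM, against 3758 to 4716 in the wild type. Most of the difference in the astrocyte sum was Gfap, with means of 1593 CPM in the wild type and 3278 in the knockout. Aldoc was lower by mean (1926 to 1853), and Aldh1l1 was 86.8 and 96.3. The part of cell makeup in the values of the 7 genes was not tested.

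The 13 cord libraries also showed which genes followed each of the 7 across libraries, by Pearson correlation of log2 CPM over 16735 genes with a mean of at least 1 CPM. These correlations describe libraries that share genotype, depth and cell makeup. The genes most like Chodl were the 3 neurofilament subunits, structural proteins of large axons: Nefm (r = 0.95, Spearman's rho = 0.93), Nefh (0.94 and 0.93) and Nefl (0.93 and 0.91). Without the 2 libraries farthest from the median of Chodl, r was 0.90, 0.88 and 0.85, and after each genotype's mean was taken out it was 0.89, 0.91 and 0.84. Nefm ran from 1888 CPM in wild-type replicate 4 to 2572 in replicate 1, and from 1503 in knockout replicate 8 to 2093 in replicate 5. The wild-type library with the least Chodl was thus also the one with the least Nefm, and the knockout library with the most Chodl had the most Nefm.

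**Figure D3:**
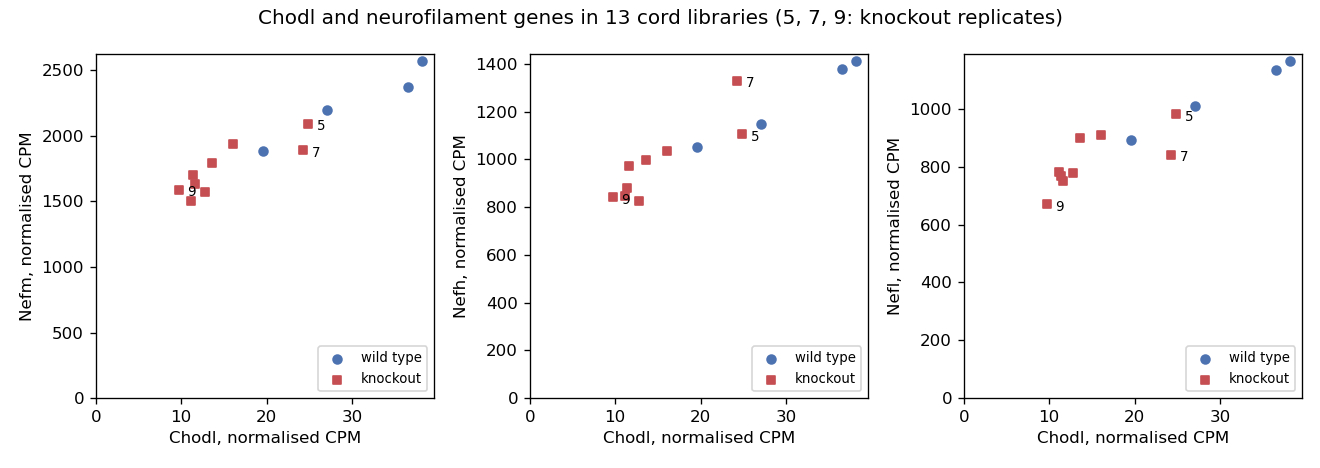
Normalised CPM of Chodl against the neurofilament genes Nefm, Nefh and Nefl in 4 wild-type (circles) and 9 knockout (squares) cord libraries, with knockout replicates 5, 7 and 9 numbered. The libraries line up from knockout replicate 9, at 9.70 CPM of Chodl, to wild-type replicate 1, at 38.2.

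Between the 7 genes, Chodl and Mmp9 had the closest pattern over the 13 cords (r = 0.80, rho = 0.85, and r = 0.79 without the 2 farthest libraries), followed by Esrrg and Sv2a (0.71, 0.77 and 0.85). Chodl was only loosely related to Sv2a (r = 0.26) and to Calca (r = -0.22), and Calca ran against Esrrg (r = -0.65, and -0.34 without the 2 farthest libraries). Outside the set, Mmp9 was closest to E2f6 (r = 0.90), a transcriptional repressor, and Pacsin3 (0.88), Calca to Rasgef1c (0.90) and Calcb to Gm15770 (0.83). Esrrb was close to Ppargc1a (r = 0.90, rho = 0.94, and 0.93 without the 2 farthest libraries), the coactivator of estrogen-related receptors, after Alox8 and Nkrf (0.92 each). Esrrg was closest to Synj1 (0.97) and Sv2a was close to Rab3a (0.97), both genes of synaptic vesicle traffic.

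In knockout cords no gene of the related lists passed edgeR's threshold. At an unadjusted p under 0.05 stood 14.3% of all genes and 7 of 17 other subtype genes, whose median log2 fold change was -0.15. The lists were chosen with earlier results of these data known, so nothing is read from their counts at that p. Vipr2, a peptide receptor, had 5.22 ± 0.651 CPM in the wild type and 3.08 ± 1.09 in the knockout, below every wild-type cord in 8 of 9 libraries (-0.76, SE 0.24, adjusted p = 0.292), and Wnt7a, a secreted signal linked to gamma motor neurons, had 20.4 ± 1.99 and 15.9 ± 2.59 (-0.36, SE 0.12, adjusted p = 0.292). All 11 synaptic vesicle membrane genes had negative fold changes, with a list median of -0.17 and 7 at an unadjusted p under 0.05. Vamp1 had 1478 ± 101 CPM in the wild type and 1191 ± 147 in the knockout (-0.31, SE 0.09, adjusted p = 0.292). All 9 knockout libraries were below all wild-type ones for Vamp1, as for 0.798% of all genes. Nefm and Nefl, of the 15 motor neuron identity genes (median -0.31, 7 at an unadjusted p under 0.05), had -0.37 and -0.36 (both SE 0.10, adjusted p = 0.292), and DESeq2 called both lower.

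The estrogen-related receptor partners centred near 0 (median 0.05), with 2 of 8 at an unadjusted p under 0.05, against 14.3% of all genes. Their paralogue Esrra was at 75.3 ± 3.71 CPM in the wild type and 63.9 ± 5.74 in the knockout (-0.24, SE 0.07, adjusted p = 0.292). The CGRP receptor genes, with a median of 0.04 and 0 of 7 at an unadjusted p under 0.05, included Calcrl at 13.7 ± 2.29 and 18.5 ± 6.20 CPM (0.43, SE 0.24, adjusted p = 0.418). Matrix metalloproteinase and inhibitor genes had a median of 0.27, with 7 of 15 at an unadjusted p under 0.05. Mmp12 had 0.157 ± 0.0323 CPM in the wild type and 3.61 ± 4.21 in the knockout, higher in 8 of 9 libraries (4.50, SE 1.33, adjusted p = 0.292), and Timp1 0.392 ± 0.174 and 5.38 ± 6.73 (3.76, SE 1.15, adjusted p = 0.292). DESeq2 called both and Lcn2 higher, and it called no gene of the subtype, CGRP, receptor partner and vesicle lists. Limma called no gene of the 6 lists. Without knockout replicates 7 and 9 edgeR called none either, and Mmp12 and Timp1 had log2 fold changes of 4.44 and 3.12 (adjusted p = 0.230 and 0.221).

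In the motor neuron cultures the fast markers had the opposite sign. Chodl was at 1.06, 1.43 and 0.940 CPM in control cultures 1 to 3 and at 3.94, 4.07 and 3.56 in miR-146a LNA cultures 1 to 3. These values rest on 63, 78 and 49 counts and on 162, 269 and 221 counts. The groups did not overlap, and the lowest LNA culture had more than the highest control. The means of 1.14 ± 0.254 and 3.86 ± 0.264 (SD, n = 3 each) gave a log2 fold change of 1.75 (SE 0.23). Both groups remained below the 9.70 CPM of the cord library with the least Chodl.

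Mmp9 was near the detection limit in the cultures. It had 28, 2 and 22 counts in control cultures and 60, 35 and 23 in LNA cultures, or 0.471, 0.0366 and 0.422 against 1.46, 0.529 and 0.371 CPM. LNA culture 3 was below control cultures 1 and 3, so the groups overlapped, and control culture 2 was at or under 3 counts, a level of 0.0542 CPM in that library. The log2 fold change of 1.30 had an SE of 0.70, and it ran from 0.54 to 1.75 when each library was left out in turn.

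Both CGRP genes were higher by mean in the LNA cultures. Calca was at 74.0, 61.8 and 48.9 CPM in control and at 95.5, 104.7 and 92.9 in LNA cultures, without overlap (61.6 ± 12.5 and 97.7 ± 6.24, log2 fold change 0.67, SE 0.14). Calcb was at 5.57, 4.38 and 3.01 and at 6.35, 6.73 and 6.83 CPM, again without overlap (4.32 ± 1.28 and 6.64 ± 0.253, 0.62, SE 0.19). Because both were higher, their TPM ratio kept the same range, 9.97 to 12.2 in control and 10.2 to 11.7 in LNA cultures. The control culture with the most Calca also had the most Calcb. Summed dorsal root ganglion markers were 37.0 to 42.5 CPM in control and 34.5 to 37.6 in LNA cultures, and Scn10a was at most 0.0806 CPM.

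The slow and gamma markers differed less between the culture groups. Esrrb was at 1.46, 1.63 and 1.77 CPM in control and 1.41, 2.04 and 2.27 in LNA cultures, with overlap (log2 fold change 0.25, SE 0.25). The pluripotent markers summed to 6.70 to 10.5 CPM in control and 11.1 to 13.2 in LNA cultures, without overlap. Of all single genes tested, 12.8% were likewise higher without overlap. Klf4, at means of 6.26 and 8.26 CPM, made up most of both sums. Pou5f1 was lower by mean in LNA cultures (0.0481 to 0.0213 CPM), and the other markers were higher. The part of pluripotent cells in these Esrrb values was not tested. Esrrg was at 115.6, 159.7 and 143.1 and at 134.0, 101.7 and 122.5 CPM, with overlap (-0.22, SE 0.15). Sv2a was at 237, 222 and 231 and at 207, 225 and 191 CPM, where LNA culture 2 was above control culture 2 (-0.15, SE 0.06). By mean, Esrrb was higher and Esrrg and Sv2a were lower in the LNA cultures, and all 3 genes had overlapping groups.

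**Figure D4:**
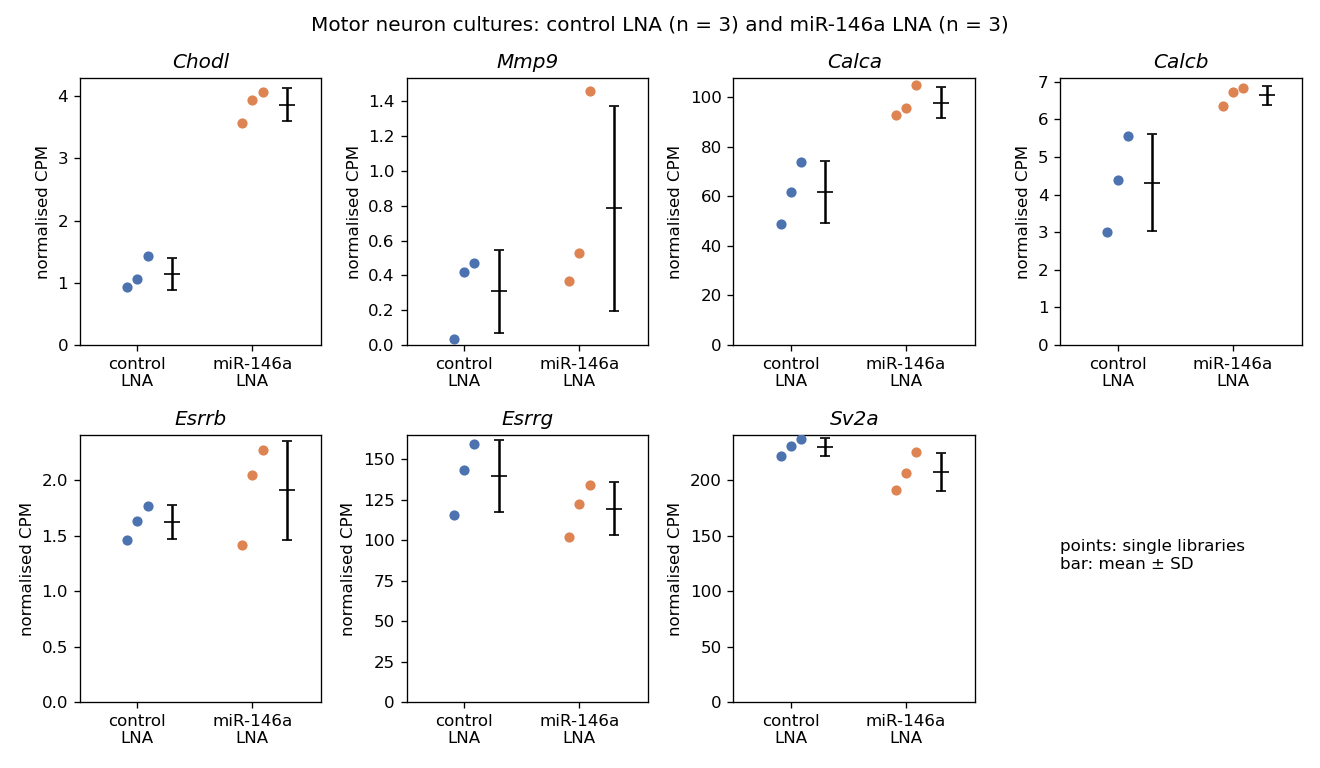
Normalised CPM of the 7 genes in 3 control LNA and 3 miR-146a LNA cultures, with 1 point per library and bars for mean ± SD. Chodl, Calca and Calcb do not overlap between the groups, and the other 4 genes do.

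In cultures 2 of the 7 genes, Chodl and Calca, passed the threshold in edgeR, both higher, where 8.56% of 19099 genes passed and 2.4% were higher. DESeq2 and limma also called Calcb. Groups without overlap and higher were seen for 3 of the 7 and for 12.8% of all genes, and nothing is read from these counts, since this comparison too served to choose the genes. Calca missed the threshold without control culture 2 and without any 1 LNA culture, and Sv2a passed it without LNA culture 2. The median log2 fold change was 0.62 over the 7 genes and 0.01 over all genes.

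**Figure D5:**
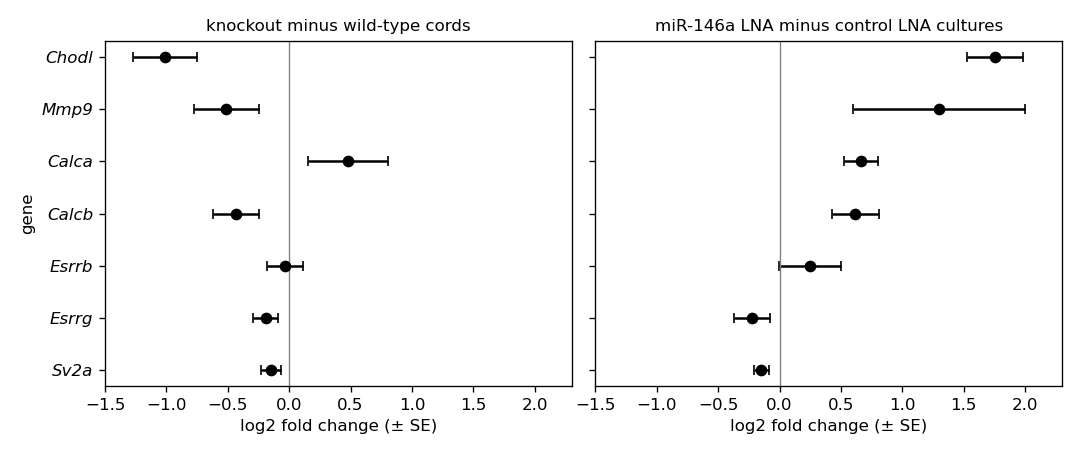
Log2 fold change with its standard error for the 7 genes, knockout minus wild-type cords on the left and miR-146a LNA minus control LNA cultures on the right. Chodl has -1.01 and 1.75, Mmp9 -0.51 and 1.30, and Calcb -0.43 and 0.62, while Esrrg and Sv2a are below 0 in both.

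Set side by side, Chodl, Mmp9, Calcb and Esrrb were lower by mean in knockout cords and higher by mean in LNA cultures, although Esrrb was higher in the knockout cords without replicates 7 and 9. Calca was higher by mean in both, and Esrrg and Sv2a were lower by mean in both. The difference between the responses of cords and cultures was not tested, since both contrasts served to choose the genes.

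Among the related lists, the synaptic vesicle genes had the most calls in the LNA cultures. As in the cords, the lists were chosen with earlier results of these data known, so nothing is read from their counts of calls. Of 11 such genes 5 fell and none rose, where 6.16% of all genes fell and 2.4% rose. Of the 11, 3 fell with scaling by library size alone, without LNA culture 1 or without any 1 control culture. Synpr, synaptoporin, fell from 9.84 ± 0.501 to 3.99 ± 0.834 CPM (-1.29, SE 0.16, adjusted p = 5.2e-05), the synapsins Syn2 (-0.41, adjusted p = 0.000242) and Syn1 (-0.26, adjusted p = 0.00256) fell, and so did Sv2c, the paralogue of Sv2a, from 155 ± 6.43 to 136 ± 2.297 CPM (-0.19, SE 0.05, adjusted p = 0.0288, between 0.0512 and 0.199 without LNA culture 1 or any 1 control culture). The list's median was -0.16, against 0.01 over all genes. Of 8 estrogen-related receptor partners 1 fell: the coactivator Ncoa1 went from 186 ± 8.54 to 125 ± 4.70 CPM (-0.57, SE 0.05, adjusted p = 5.27e-06).

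Of 17 other motor neuron subtype genes 2 fell and none rose, against 6.16% and 2.4% of all genes. Gfra1, 1 of these, a co-receptor for the growth factor GDNF, went from 365 ± 12.7 to 321 ± 19.4 CPM (-0.19, SE 0.05, adjusted p = 0.0326). It missed the threshold with scaling by library size alone (adjusted p = 0.0880), without LNA culture 2 (0.0731) and without control culture 2 (0.140) or 3 (0.148). Of 15 motor neuron identity genes Isl1 (210 ± 16.6 to 261 ± 6.16 CPM, 0.31, adjusted p = 0.00177) and Nefl (0.16, adjusted p = 0.0320) rose and the GDNF receptor Ret fell (-0.30, adjusted p = 0.00124). Nefl did not pass the threshold without control culture 2 or 3, or LNA culture 1 or 2 (adjusted p = 0.205, 0.138, 0.0888 and 0.0895). Nefm and Nefh, which with Nefl followed Chodl most closely in the cords, did not pass the test in the cultures.

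The last 2 lists stand against the same background, in which 2.4% of all genes rose and 6.16% fell. Of 6 tested CGRP receptor and related peptide genes only Adm, adrenomedullin, passed: it rose from 0.706 ± 0.196 to 1.66 ± 0.217 CPM (1.23, SE 0.30, adjusted p = 0.0145, or 0.0970 without control culture 2). Among 14 tested matrix metalloproteinase and inhibitor genes Mmp2 rose (0.67, adjusted p = 0.0210) and Mmp16 (-0.36, adjusted p = 0.0348) and Timp2 (-0.18, adjusted p = 0.0144) fell. Each of these 3 missed the threshold in 4 or more of its alternatives, with adjusted p of 0.0551 to 0.184.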

How the data were processed

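RNA from 13 spinal cord libraries and 6 motor neuron culture libraries was analysed from 19 gene tables. Per the submitters' design and processing notes, ribosomal RNA was removed, paired reads were aligned to GRCm38 with STAR 2.7.9a1, and featureCounts gave counts of unique, unambiguous reads per gene, which the authors deposited. The strand setting is not given in the sources used here. The CPM column the authors deposited is the counts over their sum, the FPKM column they deposited also divides by length and was not used, and the TPM column they deposited was used for levels between genes. Symbols and 3′ UTRs came from GENCODE M21 (55141 of 55487 identifiers matched).

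Groups follow the genotype and LNA labels. Counts were tested by edgeR 4.0.16 in R 4.3.3 (robust quasi-likelihood, default filter, TMM scaling, Benjamini-Hochberg adjustment over all genes, threshold 0.05), after the script was tested on simulated data. Normalised CPM are TMM-scaled and given as mean ± SD. A depth of 3 counts equals 0.0758 to 0.107 CPM in cords and 0.0458 to 0.0738 in cultures, for counting error only. Alternatives were DESeq2 1.42.0, limma 3.58.1 (voom with quality weights), other scalings, no filter, a replicate block and leaving out libraries. Counts of libraries in 1 group differed by more than sampling noise in every pair (chi-square per degree of freedom of 6.03 or more). Replicate numbers of cultures come from the labels and those of cords from deposit order.

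The 7 genes and the 6 related and 8 marker lists were chosen with earlier results of these data known. All 7 genes are named. From each list, up to 4 called genes with the largest fold changes, or in cords the 2 with the smallest p, are named, and the 3 genes most correlated with each of the 7. A few genes that this rule names are not reported here.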

Additional observations from a re-analysis of the deposited data

Results flagged for a closer look

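Among 57 groups of 4 to 9 cord libraries, 2 had a library far from the rest, and chance alone gives about 1 such group in 20. Both are genes of the list around Mmp9. Lcn2, a partner of the Mmp9 protein, stood at 9.36 CPM in wild-type replicate 4, with the next wild-type library at 2.17. Timp1, an inhibitor of metalloproteinases, stood at 21.5 CPM in knockout replicate 7, with the next knockout library at 10.1. Knockout replicate 7 is also the library with the most Mmp9, and none of the 7 subtype genes had such a library.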

How the results depend on the processing

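In the cords the count of called genes was 0 in edgeR, and DESeq2 called 381 (310 higher, 71 lower), limma 3, and edgeR without knockout replicates 7 and 9 called 8. Leaving out 1 library at a time gave 0 to 2. In the cultures 1635 genes were called, and 778 to 1985 with 1 library left out, the lowest without control culture 2 and 1059 without control culture 1. Scaling by library size alone called 741 higher and 831 lower genes, against 458 and 1177, and moved the median of all genes from 0.01 to 0.05.

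In cords the log2 fold change of Chodl ran from -1.18 to -0.87 over 19 alternatives, that of Mmp9 from -0.66 to -0.43, and that of Esrrb kept its sign in 14. In cultures that of Chodl ran from 1.63 to 1.94 and that of Calca from 0.52 to 0.82 over 12 alternatives. Same-numbered cultures did not deviate together (correlations of 0.06, -0.14 and 0.02), so the numbers were not taken as pairs. The replicate block called 1793 genes, and among the 7 it added Calcb to Chodl and Calca. Cords against cultures gave 17588 to 21043 calls in all its alternatives. For Mmp9 in the cultures, few counts limit the precision.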
